A study of Caenorhabditis elegans with 6 samples.

Results

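The transcription factor genes ast-1 and ceh-43 and the dopamine pathway genes cat-1, cat-2, bas-1 and dat-1 were followed in QR neuroblast descendants of the worm Caenorhabditis elegans. These are 6 of the 14700 genes in the deposited table, and all 6 were found there by name. They were picked with the comparison in view: ast-1 and ceh-43 because their transcripts were higher with activated Wnt signalling, and the other 4 because they are genes that both factors are known to drive. Their values in that comparison are therefore given as a description, without a test. The question was whether the raised factors came together with the dopamine genes. No such gain was detectable at the depth of these libraries. Transcripts of ast-1 and ceh-43 were several-fold more abundant with ΔN-BAR-1, whereas the 4 dopamine genes together gave 3 transcripts in all ΔN-BAR-1 libraries, against 4 in all control libraries.

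AST-1 is an ETS-domain transcription factor and CEH-43 is the worm homologue of Distal-less. With the PBX-type cofactor CEH-20 they act as terminal selectors of dopamine neurons, meaning that they bind and switch on the batch of genes that make and handle dopamine, and keep it on. In that batch, cat-2 encodes tyrosine hydroxylase, which commits tyrosine to dopamine synthesis. The gene bas-1 encodes the aromatic amino acid decarboxylase that completes the synthesis and also serves serotonin neurons. The gene cat-1 encodes the vesicular monoamine transporter that loads the transmitter into vesicles, and dat-1 encodes the plasma membrane transporter that takes dopamine back up. In hermaphrodites, dopamine is used by the CEP, ADE and PDE neurons, none of which comes from QR. The QR lineage instead makes AQR, an oxygen-sensing neuron, AVM, a touch neuron, and SDQR, an interneuron. Both factors also have roles outside dopamine neurons, ast-1 in axon guidance of interneurons and ceh-43 in the head hypodermis.

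The ΔN-BAR-1 group had the genotype mab-5(gk670); huIs166; ayIs9; huIs179, and the control group had mab-5(gk670); huIs166; ayIs9. Both therefore carried the deletion of mab-5, a Hox gene of Q cell migration, and the transgenes huIs166 and ayIs9, and only huIs179 set them apart. Counts of mab-5 were 71, 63 and 36 with ΔN-BAR-1 and 48, 106 and 22 in control, and whether the counted 3′ end lies outside the deleted part is not given in the labels. The series describes the first group as ΔN-BAR-1Q larvae; ΔN-BAR-1 is a form of the β-catenin BAR-1 without its N-terminus, which escapes degradation and activates canonical Wnt target genes. The promoter of huIs179 is not given in the sources used here. Larvae of the first stage had been fed for 7 hours, and each library was made from a pool of 2000 cells, with 3 libraries a group. Nothing in the labels says whether the libraries came from separate cultures, so the spread between them may be technical.

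Library totals were 190078, 222664 and 237644 estimated transcripts in ΔN-BAR-1 replicates 1 to 3, against 154785, 254362 and 68431 in control replicates 1 to 3. For bar-1 itself there were 3, 4 and 8 transcripts with ΔN-BAR-1, against 1, 4 and 0 in control; a transgene with another 3′ end would not add to these counts. The labelled lineage had its markers: all 9 genes of a Q lineage list, mab-5 among them, passed the low-count filter, led by the zinc finger gene egl-46 and the POU factor gene unc-86. Of that list, the touch neuron homeobox gene mec-3 and the Wnt receptor gene mig-1 rose and 0 fell. The call of mig-1 ended without any one control library (edgeR adjusted p 0.145 to 0.300) or without ΔN-BAR-1 replicate 2 (0.0959), and with the replicate block (0.145). It also ended with upper quartile scaling (edgeR adjusted p = 0.0713), thinning to the shallowest library (edgeR adjusted p = 0.114) and limma-voom (adjusted p = 0.132). By edgeR's quasi-likelihood test at an adjusted p under 0.05, 57 of 3447 genes were called (1.65%), 54 upward (1.57%) and 3 downward (0.087%). The count was 16, 21 and 26 without control replicates 1, 2 and 3, and 121, 54 and 86 without ΔN-BAR-1 replicates 1, 2 and 3.

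The ETS factor gene ast-1 had 147, 116 and 48 transcripts in ΔN-BAR-1 replicates 1 to 3, against 8, 14 and 3 in control replicates 1 to 3. Scaled to a common library size, as CPM, these were 799, 589.7 and 235 CPM with ΔN-BAR-1 and 56.8, 57.6 and 49.4 CPM in control. Every ΔN-BAR-1 library lay above every control library, and replicate 3 was the lowest of the ΔN-BAR-1 libraries. Among all tested genes, 10.4% had groups that lay apart in this direction. The mean was 541 ± 285 CPM with ΔN-BAR-1 and 54.6 ± 4.51 CPM in control (SD, n = 3 each), and the fitted log2 fold change was 3.26 ± 0.46 (SE), or 9.59-fold. The ratio of highest to lowest was 1.17 among the control libraries and 3.40 among the ΔN-BAR-1 libraries. Control counts were low, with exact 95% Poisson intervals of 3.45 to 15.8 transcripts in replicate 1 and 7.65 to 23.5 in replicate 2. Counting error is thus wider than the ratio of 1.17, which does not show how tightly the control level was replicated. In the shallowest library, control replicate 3, the value rested on 3 transcripts (exact 95% Poisson interval 0.619 to 8.77, counting error only), the floor below which no level is read here. Mean ast-1 levels exceeded those of 97.4% of genes in the table with ΔN-BAR-1 and of 78.1% in control.

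The Distal-less homologue gene ceh-43 had 83, 96 and 68 transcripts in ΔN-BAR-1 replicates 1 to 3, against 8, 24 and 8 in control replicates 1 to 3. In CPM these were 451, 488 and 333 with ΔN-BAR-1 and 56.8, 98.7 and 132 in control. The groups again did not overlap. The ΔN-BAR-1 libraries differed by a ratio of 1.47 from highest to lowest, less than the ratio of 2.32 in control, where counts were low. The mean was 424 ± 81.0 CPM with ΔN-BAR-1 and 95.8 ± 37.6 CPM in control (SD, n = 3 each), and the fitted log2 fold change was 2.21 ± 0.39 (SE), or 4.61-fold. Both factor genes were among the 54 higher genes (1.57% of those tested), which is how they came to be chosen. The call of ast-1 ended with limma-voom (adjusted p = 0.0528) and that of ceh-43 without control replicate 1 (edgeR adjusted p = 0.0752). Of 58 genes named ceh in the table, 7 passed the filter, and the ones called were ceh-31 and ceh-43.

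**Figure D1:**
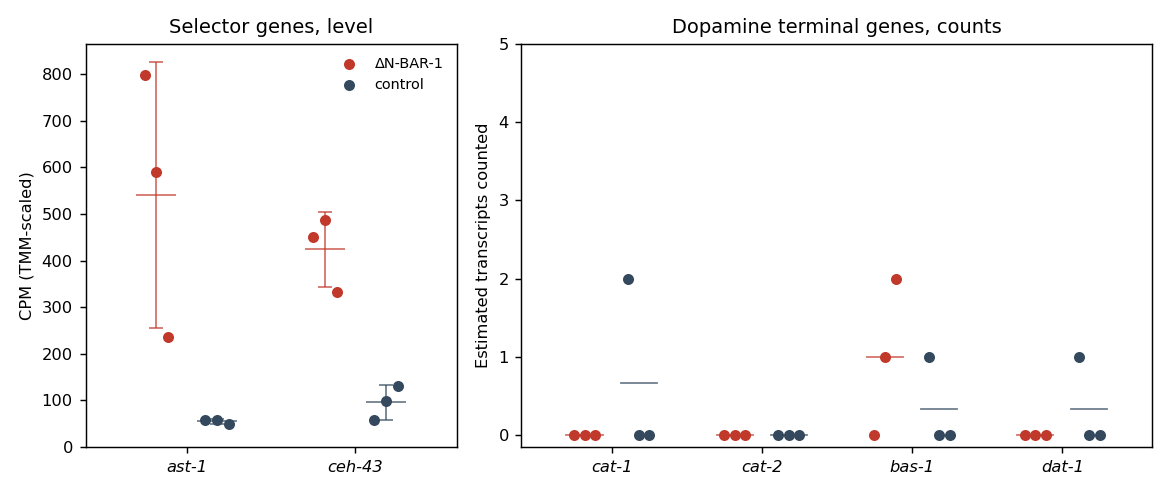
Left, level of ast-1 and ceh-43 in CPM, scaled to library size, in each ΔN-BAR-1 (red) and control (dark) library, with the mean and SD of 3 libraries. Right, estimated transcripts of cat-1, cat-2, bas-1 and dat-1 in the same libraries, unscaled, with the mean as a line; both factor genes lay higher in every ΔN-BAR-1 library, and no dopamine gene exceeded 2 transcripts in any library.

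The dopamine genes were at the limit of detection in both groups. The tyrosine hydroxylase gene cat-2 had 0 transcripts in every library. A count of 0 over the whole ΔN-BAR-1 group of 650386 transcripts allows a level of up to 4.61 CPM (3 counts over the group), and over the control group of 477578 transcripts up to 6.28 CPM. Both limits use these unscaled totals, not the TMM-scaled sizes behind the CPM of ast-1 and ceh-43. The reuptake transporter gene dat-1 had 0, 0 and 0 transcripts in ΔN-BAR-1 replicates 1 to 3, against 1, 0 and 0 in control replicates 1 to 3. The vesicular transporter gene cat-1 had 0, 0 and 0 transcripts with ΔN-BAR-1, against 2, 0 and 0 in control. The genes that are most particular to dopamine neurons, cat-2 and dat-1, were thus without a transcript in all 3 ΔN-BAR-1 libraries.

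The decarboxylase gene bas-1 was the only dopamine gene counted with ΔN-BAR-1, at 0, 1 and 2 transcripts in replicates 1 to 3, against 1, 0 and 0 in control. The groups overlapped, and the ratio of the pooled rates was 2.20 with an exact 95% interval of 0.177 to 116 for counting error. Its paralogue basl-1, the next gene on the same strand, was not analysed here, and reads that fit both could have been counted in either, so the bas-1 values are uncertain. The 4 genes summed to 0, 1 and 2 transcripts in ΔN-BAR-1 replicates 1 to 3, against 4, 0 and 0 in control replicates 1 to 3. The ratio of the pooled rates was 0.551, with an exact 95% interval of 0.0807 to 3.26. By the same measure the pooled ratio was 9.13 (6.07 to 14.3) for ast-1 and 4.53 (3.24 to 6.50) for ceh-43. These ratios belong to genes chosen for being high and cover counting error only, so they are set beside that of the dopamine genes without a comparison. All of the control transcripts came from control replicate 1, without which the control sum was 0, so the ratio of the sums rests on that library. None of the 4 passed the low-count filter, and 45.8% of all genes in the table had 3 or fewer transcripts over the 6 libraries, as cat-1, cat-2 and dat-1 did.

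In contrast to the dopamine genes, ast-1 and ceh-43 were themselves detected in every control library. Their mean control levels exceeded those of 78.1% and 85.5% of genes in the table. In every ΔN-BAR-1 library the 2 factors together gave 230, 212 and 116 transcripts, beside the 0, 1 and 2 of the 4 dopamine genes; in control they gave 16, 38 and 11, beside 4, 0 and 0. CEL-seq counts the 3′ end once per transcript, so these numbers do not depend on gene length. The library with the most ast-1 transcripts, ΔN-BAR-1 replicate 1, had no dopamine gene transcript.

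The proportion of the 2 factors is given for each library. Of their summed transcripts, ast-1 made up 63.9% in ΔN-BAR-1 replicate 1 (exact 95% binomial interval 57.3% to 70.1%), 54.7% in replicate 2 (47.8% to 61.5%) and 41.4% in replicate 3 (32.3% to 50.9%). In control replicates 1 to 3 it was 50% (24.7% to 75.3%), 36.8% (21.8% to 54.01%) and 27.3% (6.02% to 61.0%). The share was highest in ΔN-BAR-1 replicate 1 and lowest in control replicate 3, and the ranges of both groups overlapped.

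**Figure D2:**
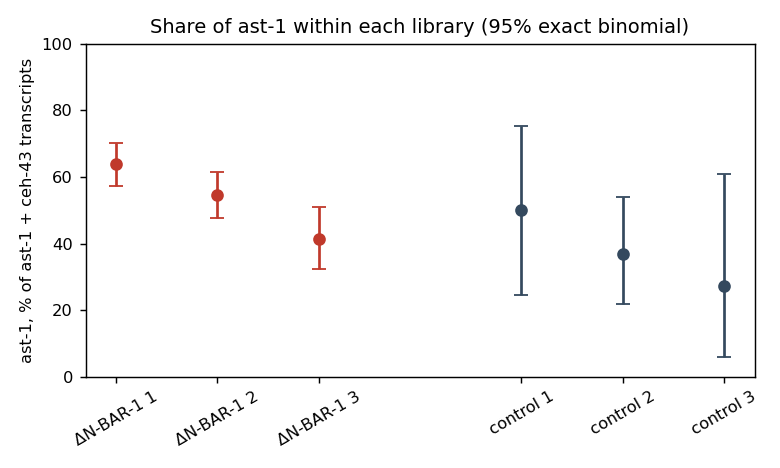
Share of ast-1 in the summed transcripts of ast-1 and ceh-43, in percent, for each library; bars are exact 95% binomial intervals, which cover counting error only. The share ran from 41.4% to 63.9% in the ΔN-BAR-1 libraries (red) and from 27.3% to 50% in control (dark).

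Other cell types in the pools were followed by their markers, since ΔN-BAR-1 replicates 1 and 3 also stood apart there. Body wall muscle markers, of which 10 of 11 were detected, summed to 6006, 14009.5 and 20266 CPM in ΔN-BAR-1 replicates 1 to 3, against 8636, 8053 and 15530 CPM in control replicates 1 to 3; most of this was unc-54 and act-4, the defining muscle factor gene hlh-1 was at 0, and 0 of 7 tested were called. The order of these sums over the ΔN-BAR-1 libraries was the opposite of that of ast-1. It was the order of unc-54 (2272, 7218 and 15580 CPM in replicates 1 to 3) but not of act-4 (3240, 5785 and 3251 CPM). Of the less abundant tested markers, unc-15, mlc-1, mlc-2 and mlc-3 had the order of unc-54, and lev-11 did not. With distinct identifiers in place of estimated transcripts, unc-54 stood at −0.59 in place of 0.76 on the log2 scale (edgeR adjusted p = 0.603). Hypodermis and seam markers, a tissue in which ceh-43 is used, had 9 of 13 detected and summed to 304, 1357 and 779 CPM with ΔN-BAR-1, against 1257, 909 and 1186 CPM in control; dpy-7, rol-6, wrt-2 and dpy-13 were at 0, and 0 of 4 tested were called. At an unadjusted p under 0.05 edgeR gave 0 genes of either list, beside 401 of 3447 over all genes tested. Single libraries decided some of these values: unc-54 passed at 1.22 without ΔN-BAR-1 replicate 1 (edgeR adjusted p = 0.0145), and the collagen gene col-10 passed at −2.75 without ΔN-BAR-1 replicate 2 (edgeR adjusted p = 0.00166). The value of 1.22 rests on the same uncertain estimates of unc-54. Glial markers were led by lin-26, which the hypodermal list also holds, and vap-1, and had 4 of 6 detected, with sums of 179 to 313 CPM with ΔN-BAR-1 and 165 to 346 CPM in control. Pharynx (myo-2, tnc-2) and intestine (act-5, ifb-2) markers summed to at most 98.8 and 71.0 CPM in any library. Their part in the values of ast-1 and ceh-43 was not tested.

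Markers of 2 of the neuron types that QR makes were also followed. Of 5 tested touch neuron genes, mec-1, mec-3, mec-7, mec-12 and mec-18, all 5 rose (edgeR adjusted p 0.000832 to 0.0197), against 1.57% of all tested genes. The β-tubulin gene mec-7 and the α-tubulin gene mec-12 were the most abundant. The others of the 9 listed, mec-2, mec-4, mec-10 and mec-17, did not pass the filter. In control, mec-1 had 0, 4 and 1 transcripts, mec-3 had 8, 18 and 3, and mec-18 had 2, 7 and 2. These genes passed the filter through their ΔN-BAR-1 counts, so the filter partly set the 5 of 5. Omitting control replicate 1 or 2 ended the call of mec-18 (edgeR adjusted p = 0.106 and 0.0670), and omitting any control library or ΔN-BAR-1 replicate 2 ended the call of mec-7 (0.0817 to 0.275). The calls of mec-1, mec-7 and mec-18 also ended with the replicate block (edgeR adjusted p = 0.0562, 0.129 and 0.0537) and with limma-voom (adjusted p = 0.217, 0.0528 and 0.131). With distinct identifiers in place of estimated transcripts, mec-7 stood at 0.82 in place of 1.45 on the log2 scale (edgeR adjusted p = 0.176). This list summed to 3881, 3833 and 2737 CPM in ΔN-BAR-1 replicates 1 to 3, against 966, 942 and 1136 CPM in control replicates 1 to 3. Oxygen-sensing neuron genes, 7 tested, led by ahr-1 and gcy-36, gave 0 calls by edgeR. At an unadjusted p under 0.05 there were 5, beside 401 of 3447 over all genes tested. Among the 5, gcy-33 and gcy-37 passed without ΔN-BAR-1 replicate 1 (edgeR adjusted p = 0.00290 and 0.0197), and gcy-32 passed without ΔN-BAR-1 replicate 2 (edgeR adjusted p = 0.0264). Without the low-count filter gcy-33 and gcy-32 also passed (edgeR adjusted p = 0.00665 and 0.0363). So did gcy-33 with distinct identifiers (0.0444) and gcy-32 after thinning to the shallowest library (0.0340). The 7 genes summed to 3827, 3025 and 4044 CPM with ΔN-BAR-1, against 2116, 2279 and 2059 CPM in control. The dopaminergic list, by contrast, had 4 of 7 genes detected, with trp-4 and dop-2 at 0 beside cat-2, and summed to at most 9.79 CPM in any ΔN-BAR-1 library and 35.5 CPM in any control library. In pooled cells, a change in how many cells of a type were collected and a change of RNA per cell cannot be told apart.

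Few other genes for making or breaking down dopamine could be tested, and none of those passed. No dopamine receptor gene had enough transcripts to be tested. Of 12 further genes for cofactor synthesis and dopamine breakdown, 11 were in the table, 8 were detected and 3 could be tested, with 0 calls. The gene cat-4 encodes GTP cyclohydrolase, which starts the synthesis of the biopterin cofactor of tyrosine hydroxylase, and had 0, 0 and 0 transcripts with ΔN-BAR-1, against 1, 1 and 0 in control. The biopterin recycling genes qdpr-1 and pcbd-1 were detected in every library, at 42.3 ± 13.2 and 104 ± 28.0 CPM with ΔN-BAR-1 and 78.8 ± 13.2 and 57.7 ± 14.1 CPM in control (SD, n = 3 each). Their log2 fold changes were −0.91 ± 0.53 and 0.78 ± 0.47 (SE; edgeR adjusted p = 0.580 and 0.605). The monoamine oxidase gene amx-1 stood at 0.035 ± 0.62 (edgeR adjusted p = 0.991), with 28 of its transcripts in ΔN-BAR-1 replicate 3 alone, and its sign changed without that library (−1.17).

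Dopamine receptor genes were nearly silent. The genes dop-2, dop-3, dop-4 and lgc-53 were at 0 in every library, dop-1 had 5 transcripts, all in ΔN-BAR-1 replicate 1, and dop-5 and dop-6 had 1 each. The signalling proteins that receptors of many transmitters share were abundant. The Go α subunit gene goa-1 averaged 1975 ± 587 CPM with ΔN-BAR-1 and 1529 ± 260 CPM in control (SD, n = 3 each). Its log2 fold change was 0.38 ± 0.32 (edgeR adjusted p = 0.760). The receptor kinase gene grk-2 had 18, 17 and 14 transcripts in ΔN-BAR-1 replicates 1 to 3, against 0, 8 and 0 in control replicates 1 to 3. The groups did not overlap, as held in this direction for 10.4% of all tested genes, and grk-2 passed the filter through its ΔN-BAR-1 counts. Its log2 fold change of 2.32 ± 0.74 did not pass (edgeR adjusted p = 0.129), nor did that of the RGS protein gene eat-16 (1.08 ± 0.38, adjusted p = 0.169). All control transcripts of grk-2 came from control replicate 2; without it the fitted value was 6.73 (edgeR adjusted p = 0.0583), which is no bound because the other control libraries were at 0. Of the genes that mark dopamine neurons in other ways, the mechanosensory channel gene trp-4 was at 0 and the peptide gene flp-33 had 1 transcript, in control.

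**Figure D3:**
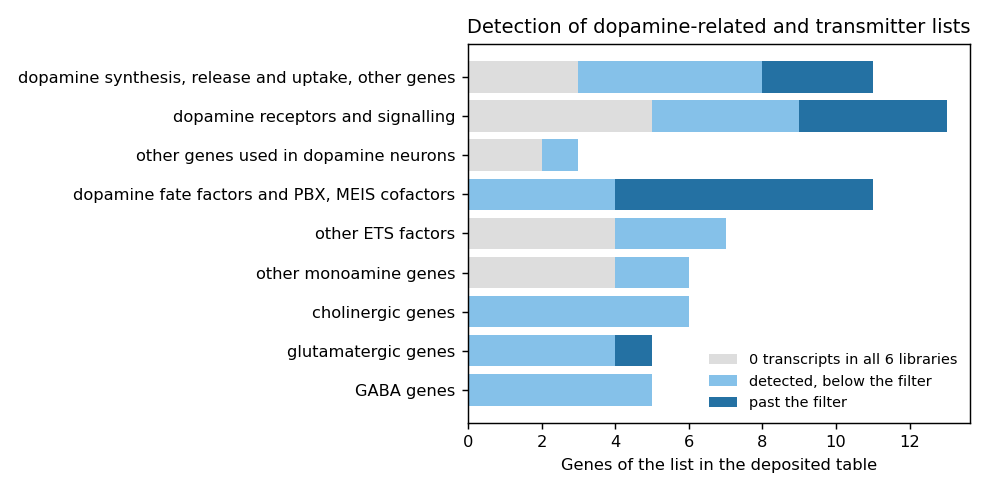
Number of genes of each list found in the table, split into those with 0 transcripts in all 6 libraries (grey), those detected below the low-count filter (light blue) and those past it (dark blue). Genes for dopamine receptors and signalling had 5 at 0 and 4 past the filter, while other monoamine genes had 4 of 6 at 0 and none past the filter.

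Partners of the selectors were present to different degrees. The PBX gene ceh-20 was not analysed here, and its relatives ceh-40 and ceh-60 had 2 and 0 transcripts with ΔN-BAR-1, against 0 and 1 in control. The MEIS-type cofactor gene unc-62 was abundant, at 1397 ± 142 CPM with ΔN-BAR-1 and 1629 ± 120 CPM in control (SD, n = 3 each), with a log2 fold change of −0.22 ± 0.30 (edgeR adjusted p = 0.881). The PAX6-type gene vab-3, a regulator of the CEP dopamine neurons, had 0 transcripts with ΔN-BAR-1, against 3 in control. Among neuronal fate factors of the list, 7 were tested and 0 were called. The proneural gene lin-32 averaged 195 ± 64.3 CPM with ΔN-BAR-1 and 456 ± 90.4 CPM in control (SD, n = 3 each), with a log2 fold change of −1.24 ± 0.34 (edgeR adjusted p = 0.0685). It passed when ΔN-BAR-1 replicate 2 was left out (edgeR adjusted p = 0.0480). The zinc finger homeobox gene zag-1 stood at 0.77 ± 0.32 (edgeR adjusted p = 0.309), but at 0.082 with distinct identifiers (edgeR adjusted p = 0.963), and egl-46 at −0.54 ± 0.35 (edgeR adjusted p = 0.641).

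Other ETS genes were too scarce to test. Of 11 listed, 7 were in the table and 4 were not analysed here, and none of the 7 passed the filter. They summed to 36 transcripts among 650386 with ΔN-BAR-1 and 36 among 477578 in control, beside 311 and 25 of ast-1. The most abundant of them were lin-1, with 2, 9 and 7 transcripts in ΔN-BAR-1 replicates 1 to 3, against 6, 19 and 2 in control replicates 1 to 3, and ets-6, with 6, 7 and 4, against 3, 3 and 2.

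Genes of other transmitters were also scarce. Of 6 other monoamine genes in the table, the tryptophan hydroxylase gene tph-1, the serotonin transporter gene mod-5, the tyramine hydroxylase gene tbh-1 and hdl-2 were at 0, and the rest summed to 8 transcripts with ΔN-BAR-1 and 6 in control. Cholinergic genes (6) summed to 14 transcripts in each group, and GABA genes (5) to 4 with ΔN-BAR-1 and 11 in control. Among glutamatergic genes, the vesicular transporter gene eat-4 had 2, 5 and 6 transcripts in ΔN-BAR-1 replicates 1 to 3, against 0, 2 and 0 in control replicates 1 to 3, below the filter. The glutaminase gene glna-3 stood at 0.78 ± 0.57 on the log2 scale (edgeR adjusted p = 0.701).

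Over all of these lists, 15 of 66 genes in the table could be tested, and 0 were called by edgeR, against 1.65% of all tested genes. At an unadjusted p under 0.05 edgeR gave 4 of the 15 (grk-2, eat-16, zag-1 and lin-32), beside 401 of 3447 over all genes tested. After adjustment limma-voom and DESeq2 also called 0, with 3 adjusted p not given by DESeq2. Of the 15, 8 were above 0, with a median log2 fold change of 0.035, beside a median of 0.00031 and 1724 of 3447 above 0 for all genes tested.

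**Figure D4:**
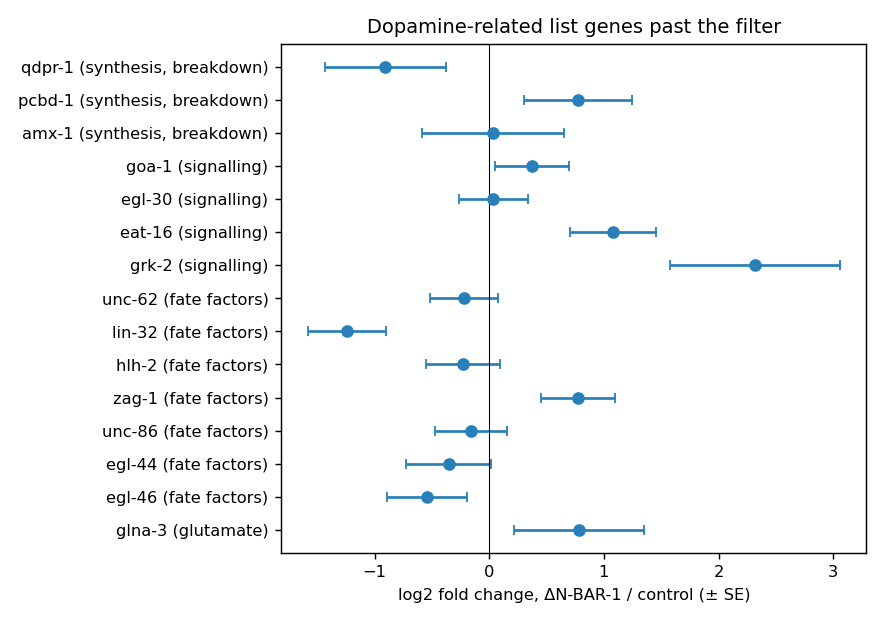
log2 fold change, ΔN-BAR-1 over control, with its SE, for the 15 list genes past the filter, grouped by list. The values ran from −1.24 for lin-32 to 2.32 for grk-2, and none passed the test after adjustment.

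**Figure D5:**
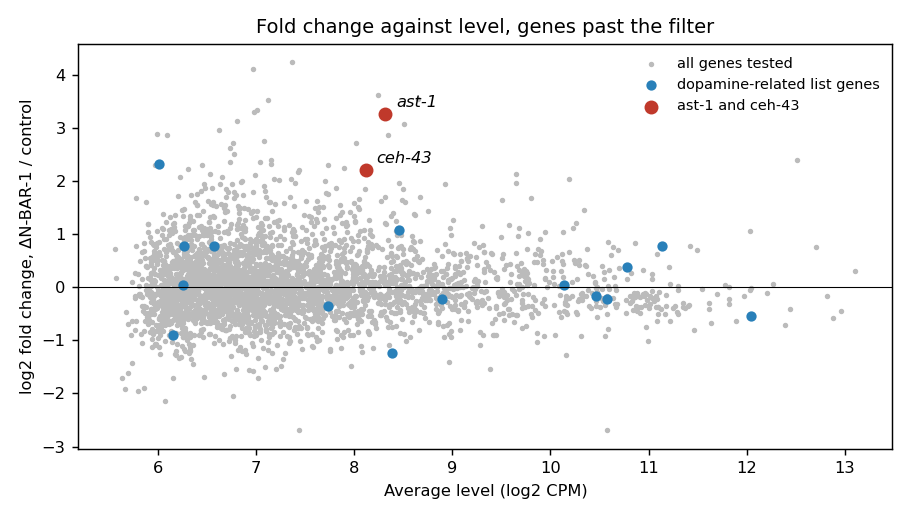
log2 fold change, ΔN-BAR-1 over control, against average log2 CPM for 3447 tested genes (grey), the 15 list genes (blue) and ast-1 and ceh-43 (red). The factor genes lay at 3.26 and 2.21, and cat-1, cat-2, bas-1 and dat-1 are absent from the plot because they did not pass the filter.

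The genes whose levels followed the factors most closely were ranked by Pearson's r of log2 CPM over the 6 libraries. These values are a description: all points share the same libraries and the difference between the groups. For ast-1 they were the p38 kinase gene pmk-2 (0.988), T02E9.5 (0.987), the touch neuron homeobox gene mec-3 (0.987), rga-9b (0.983) and lin-33 (0.981). The gene mec-3 had 105, 79 and 57 transcripts in ΔN-BAR-1 replicates 1 to 3, against 8, 18 and 3 in control replicates 1 to 3, the same order of ΔN-BAR-1 libraries as ast-1. For ceh-43 the closest were the neuropeptide gene nlp-35 (0.988), the ERK gene mpk-1 (0.987), klu-1 (0.986), cgef-1 (0.986) and C24A3.2 (0.985). Transcripts of nlp-35 numbered 43, 79 and 38 in ΔN-BAR-1 replicates 1 to 3, against 1, 3 and 2 in control replicates 1 to 3, with replicate 2 the highest as for ceh-43. Between ast-1 and ceh-43 themselves r was 0.929, and 49 genes followed ast-1 more closely than ceh-43 did. Over the 6 libraries, 86 of 3447 tested genes exceeded 0.9 with ast-1 and 87 with ceh-43, so an r above 0.9 was not particular to the genes named.

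Neighbouring genes bear on what the counts can hold, since it is not stated whether counting used the strand. In the Ensembl annotation, the 3′ end of ast-1 meets that of rhgf-2, a RhoGEF gene on the opposite strand, with 17 shared exon bases. Transcripts of rhgf-2 numbered 92, 72 and 103 in ΔN-BAR-1 replicates 1 to 3, against 64, 103 and 36 in control replicates 1 to 3, with a log2 fold change of −0.081 ± 0.31 (edgeR adjusted p = 0.958). Replicate 3 was the highest ΔN-BAR-1 library for rhgf-2, and whether reads of rhgf-2 entered the ast-1 counts was not tested. The 3′ end of cat-2 lies inside scc-2 on the opposite strand but in none of its exons; scc-2 was not analysed here. No exon of ceh-43, cat-1, bas-1 or dat-1 overlapped an exon of another gene.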

How the data were processed

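Messenger RNA was measured by CEL-seq, per the labels' protocols, with sequencing libraries made as in CEL-seq2. The deposited values are estimated counts per gene, corrected by the authors for molecular identifiers that meet by chance and not scaled between libraries; the sources used here name no aligner, annotation or genome build, so no coordinates are printed. Counts were rounded. Genes were tested in edgeR 4.0.16 (R 4.3.3) with TMM scaling, filterByExpr (min.count 10, min.total.count 15) and the robust quasi-likelihood F test (two-sided) on all 6 libraries, with Benjamini-Hochberg adjustment over 3447 genes and a threshold of 0.05. Standard errors were derived from the F statistics, and the steps were tested on simulated data. CPM use TMM-scaled library sizes. Intervals (95%) and the floor of 3 counts cover counting error only.

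The members and lists were chosen with earlier results of these data known. Named were all members, up to 3 genes per pathway list with the smallest p, the 2 most abundant markers per cell type and 5 genes closest to each factor; other genes named were chosen after their values were seen. Alternatives used DESeq2 1.42.0, limma 3.58.1 (voom), other scalings and filters, distinct identifiers, thinning, a replicate block and omitted libraries. Promoter sequences were not analysed here.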

Additional observations from a re-analysis of the deposited data

How the results depend on the processing

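The log2 fold changes of ast-1 and ceh-43 moved by less than the SD between replicates under each of 15 alternatives, from 2.87 to 3.59 for ast-1 and from 1.90 to 2.39 for ceh-43, although ast-1 was not called with limma-voom (adjusted p = 0.0528) nor ceh-43 without control replicate 1 (edgeR adjusted p = 0.0752). The count of changed genes over the whole table was 101 without a low-count filter, 35 with the stricter filter (min.count 30, 1414 genes tested), 9 with limma-voom and 19 with the replicate block, and ran from 16 to 121 without single libraries; apart from the number of genes tested, the cause was not tested. The block brought no call among the 15 pathway genes tested and ended those of the markers mec-1, mec-7, mec-18 and mig-1. After group means were subtracted, same-numbered libraries correlated at −0.148, −0.084 and −0.028, so the numbers gave no sign of pairing. Between 0 and 1 genes of the pathway lists were called without single libraries, the 1 being lin-32 at −1.56 (edgeR adjusted p = 0.0480). Uncalled genes near 0 changed sign: amx-1 with upper quartile scaling (−0.048), DESeq2 (−0.018), limma-voom (−0.23), the replicate block (−0.42), without ΔN-BAR-1 replicate 3 (−1.17) and without control replicate 2 (−0.23; −1.17 to 0.43 over single omissions), and goa-1 with distinct identifiers (−0.021). The summed dopamine genes stood at 4.96 CPM with ΔN-BAR-1 and 9.47 CPM in control; without control replicate 1 these were 4.86 and 0 CPM, and after thinning to 68431 transcripts both were 0. The promoter comparison was not run. In control replicate 3 a single transcript equals 14.6 CPM of the unscaled total, so levels under the floor of 3 transcripts, 43.8 CPM, are not read there.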

Other observations

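The vesicular acetylcholine transporter gene unc-17 and the choline acetyltransferase gene cha-1, which share a locus, had the same values in every library: 0, 0 and 0 transcripts in ΔN-BAR-1 replicates 1 to 3, and 0, 3 and 2 in control replicates 1 to 3. The 2 genes cannot be told apart in this table, and the cholinergic sums count these transcripts under both names.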
